A study of Homo sapiens with 4 samples.

Results

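The RAS, RAF, MEK and ERK genes encode the core of the mitogen-activated protein kinase cascade, and 7 of them were followed here in RNA bound by NSUN2: HRAS and NRAS (RAS GTPases), ARAF and BRAF (RAF kinases), MAP2K1 and MAP2K2 (the MEK kinases) and MAPK3 (the kinase ERK1). They were listed by name and matched on the gene symbol of the deposited peak lists. Of the 7 genes, 6 had at least 1 peak, among 15016 genes with a symbol and a peak in the series. NSUN2 RNA immunoprecipitation sequencing (RIP-seq), in which RNA pulled down with an anti-NSUN2 antibody is sequenced beside the RNA of the lysate (input), was performed in wild-type PANC-1 cells, an established line of pancreatic ductal adenocarcinoma. Cells received 30 mM sodium lactate or the vehicle ddH2O for 24 h, and each condition had 1 immunoprecipitation (IP) library and 1 input library. With 1 library per group, no difference below has a replicate check, and no p-value is given for any of them.

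NSUN2 is an RNA methyltransferase that places 5-methylcytosine on tRNAs and mRNAs. RAS proteins switch between a GDP-bound and a GTP-bound state, and GTP-bound RAS recruits RAF to the membrane. RAF phosphorylates MEK, MEK phosphorylates ERK, and ERK acts on kinases and transcription factors that drive growth. Activating RAS mutations are the hallmark lesion of pancreatic ductal adenocarcinoma, which places this cascade at the centre of the disease.

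Markers of ductal epithelium were checked against those of other cell types. Of 6 ductal epithelial markers, 5 had a called peak, and the windows with the most reads of these genes held 4438 reads with lactate and 12397 with ddH2O. KRT18, a keratin of simple epithelia, held most of them, with 2737 and 8085 reads and normalized densities of 2455 and 2254 reads per kb, followed by KRT8 with 1592 and 4024. KRT19 had 92 and 248 reads and KRT7 had 16 and 37, while EPCAM had 1 and 3 and SOX9 had no peak. Densities with lactate and ddH2O were 1356 and 1182 reads per kb for KRT8 and 62.4 and 92.7 for KRT19. They were 9.81 and 16.5 for KRT7 and 0.96 and 2.09 for EPCAM. Peaks were called for 2 of 4 leukocyte markers, which summed to 3 and 8 reads, and for 2 of 5 fibroblast markers, which summed to 47 and 52 reads with COL1A1 as the most abundant. No peak was called for any of the 3 endothelial, 4 acinar and 2 islet markers.

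The 7 genes held 28 of the 48104 peaks called with lactate and 50 of the 95785 peaks called with ddH2O, each called by the authors in an IP library against its own input. Introns held 19 of the 28 lactate peaks (67.9%, 95% Clopper-Pearson interval 47.6 to 84.1%) and 32 of the 50 ddH2O peaks (64.0%, 49.2 to 77.1%). Among peaks of all protein-coding genes, introns held 61.5% with lactate and 61.2% with ddH2O, inside both intervals. The 3′ UTR held 4 lactate peaks and 9 ddH2O peaks, exons held 5 and 9, and no peak lay in a 5′ UTR. With lactate and ddH2O, the 3′ UTR held 18.1% and 15.8% of all protein-coding peaks, exons 18.8% and 21.0%, and 5′ UTRs 1.58% and 1.98%, so the absence of a 5′ UTR peak among so few is near that background. These intervals cover counting error only. Of the lactate peaks, 14 of 28 (50%) shared 1 base or more with a peak of the ddH2O list, and 15 of 50 (30.0%) in the ddH2O list did so with a peak of the lactate list. The same shares over all protein-coding peaks were 58.5% and 29.9%.

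**Figure D1:**
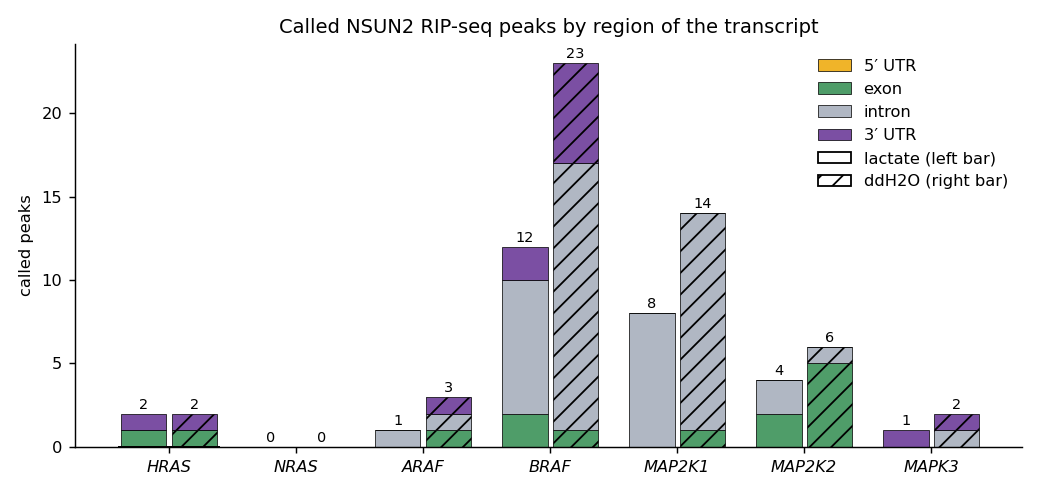
Number of called NSUN2 RIP-seq peaks (y axis) per gene (x axis), with the lactate list as the left bar, the ddH2O list as the hatched right bar, and colours for the annotated region. BRAF (12 and 23 peaks) and MAP2K1 (8 and 14 peaks) carried most of the peaks, nearly all of them in introns for MAP2K1, and NRAS had none.

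The genes fell into 3 patterns. HRAS, ARAF, MAP2K2 and MAPK3 each had its leading window at the 3′ end of the gene. BRAF and MAP2K1 had many peaks spread over long introns and none at the 3′ end. With lactate, however, the ARAF window was no denser than the leading windows of BRAF and MAP2K1. NRAS had no peak. Density here is the deposited normalized read density, in reads per kb of a window of 2000 bases around each merged peak, and the window with the most reads over both IP libraries was taken as the leading window of a gene. Leading windows were centred within 500 bases of the 3′ end of the RefSeq gene in 4 of the 6 members with a peak, as in 28.1% of the 12261 protein-coding genes that could be placed. The share was 36.8% of genes with a span under 50 kb, which the 4 members have, and 12.5% of genes with a span of 100 kb or more, as in BRAF and MAP2K1. The 500 bases and the classes of span were chosen after seeing the data.

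**Figure D2:**
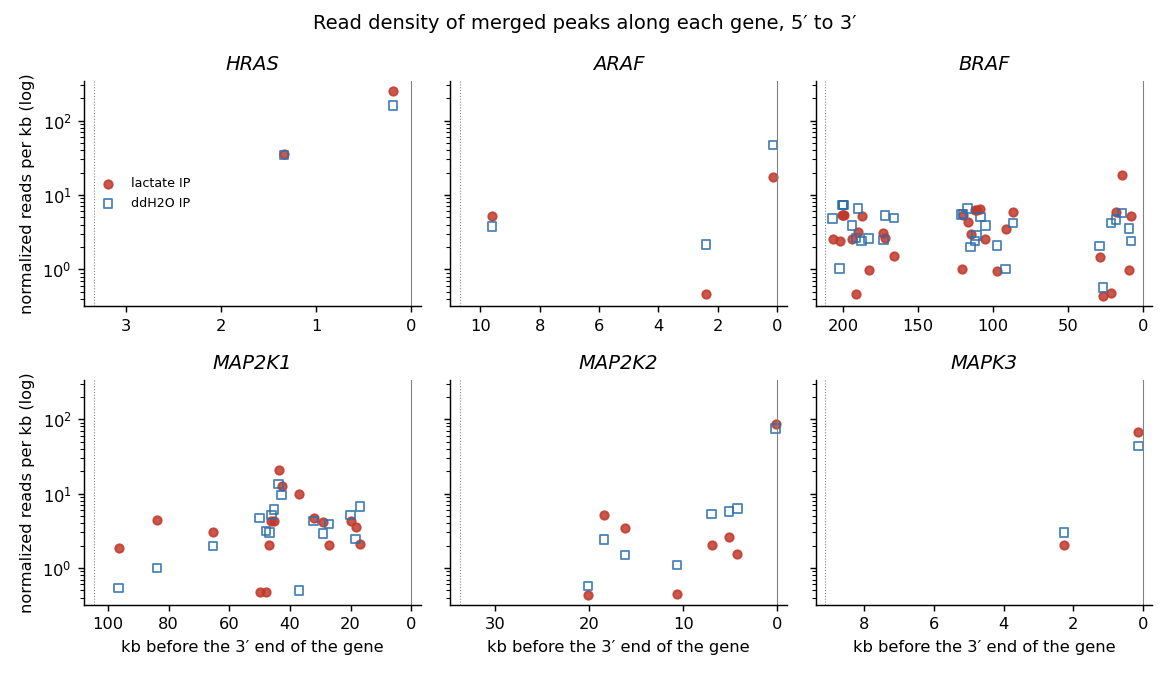
Normalized read density of each merged peak (y axis, reads per kb, log scale) against its distance from the 3′ end of the gene in kb (x axis, the dotted line marks the other end of the gene), with filled red circles for the lactate IP and open blue squares for the ddH2O IP. The densest window lay at the 3′ end in HRAS, ARAF, MAP2K2 and MAPK3, whereas the nearest window to that end was 8.09 kb away in BRAF and 16.9 kb away in MAP2K1.

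Among the RAS GTPases, HRAS had the densest window of all members. HRAS (ENSG00000174775) lies on chromosome 11 from 532242 to 535576 in GRCh38, and its 3′ UTR peak, merged from 532147 to 532730, was called in both lists. This window held 339 reads with lactate and 465 reads with ddH2O, and its normalized density was 247.5 reads per kb with lactate and 160.02 reads per kb with ddH2O. These densities stood at percentile 96.4 and percentile 93.8 of the leading windows of 12395 protein-coding genes. Thus, HRAS was among the stronger signals of the experiment in either condition. The fold enrichment over input was 7.68 with lactate and 8.06 with ddH2O, against medians of 3.64 and 3.51 over 3′ UTR peaks of protein-coding genes. The log2 ratio of lactate over ddH2O density was 0.63, with a 95% counting interval of 0.42 to 0.83, and remained under 2-fold. With the reads scaled by the library sums in place of the authors' normalization, it was 0.35 with an interval of 0.14 to 0.55. A second HRAS peak, in an exon from 533280 to 533946, had densities of 35.2 and 34.6 reads per kb, a log2 ratio of 0.02 and fold enrichments of 5.89 in both lists. The 2 windows overlap. The whole HRAS span also lies inside that of LRRC56, and reads of the 2 genes cannot be told apart without strand.

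NRAS, whose protein shares its catalytic domain with HRAS, lies on chromosome 1 from 114704469 to 114716771, a span of 12.3 kb, and no peak of either list touched that span. By symbol, 39.0% of 20056 RefSeq protein-coding genes had no peak in either list. The lists hold only regions that passed the peak caller, so the NRAS reads outside peaks are unknown, and low expression and low recovery by the antibody cannot be told apart.

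The RAF kinases differed in where their leading windows lay, at the 3′ end of the gene in ARAF and in an intron in BRAF. ARAF (ENSG00000078061; chromosome X from 47561205 to 47571908) carried 1 lactate peak and 3 ddH2O peaks. Its leading window, a 3′ UTR peak from 47571528 to 47572012, was called with ddH2O alone, at a fold enrichment of 9.48. The window held 27 reads with lactate and 115 reads with ddH2O, and densities of 17.3 and 46.9 reads per kb. The log2 ratio was -1.44 with a counting interval of -2.14 to -0.86, which is a 2.71-fold higher density with ddH2O. Among member windows with at least 20 reads, this was the single one lower with lactate past 2-fold. Its peak entered through the ddH2O list alone, which favours a ratio below 0, and the counting interval does not cover this selection. The last 8 bases of ARAF overlap the neighbouring gene SYN1, which the window also reaches. The other ARAF windows held 16 and 3 reads over both libraries, too few to compare.

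BRAF (ENSG00000157764; chromosome 7 from 140713328 to 140924929) spans 211.6 kb and had 31 merged peaks, the most of any member. Of these, 3 were called in both lists, 9 with lactate alone and 19 with ddH2O alone. Among called BRAF peaks, 25% with lactate and 17.4% with ddH2O shared 1 base or more with the other list. The same shares over all protein-coding peaks were 58.5% and 29.9%. The windows of the 31 merged peaks lay between 8.09 and 206.9 kb from the 3′ end. They formed 3 stretches of 7, 11 and 13 windows separated by gaps of 57.6 and 44.9 kb. Introns held 8 of 12 lactate peaks and 16 of 23 ddH2O peaks, shares of 66.7% and 69.6%. In protein-coding genes with a span of 100 kb or more, introns held 76.2% and 74.9% of the peaks, so the BRAF shares were near those of long genes. These 8 peaks of both lists were annotated as 3′ UTR, yet they lay 8.15 to 120.8 kb before the 3′ end of the gene, on 5 different BRAF transcripts. Of the 31 windows, 24 (77.4%) held under 20 reads over both libraries, as did 67.4% of the windows of all merged peaks.

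The leading BRAF window was an intron peak from 140727189 to 140727651, called with lactate alone at a fold enrichment of 5.04. It held 32 reads with lactate and 12 reads with ddH2O, and densities of 18.7 and 5.73 reads per kb. The log2 ratio was 1.71 with a counting interval of 0.78 to 2.87. Among member windows with at least 20 reads this was the single one higher with lactate past 2-fold. Its peak entered through the lactate list alone, and its 12 ddH2O reads would not reach the minimum. Such selection favours a ratio above 0, and the counting interval does not cover it. A MAP2K1 window with 19 reads, given below, fell under that minimum. The other 6 BRAF windows with at least 20 reads had log2 ratios between -0.61 and 0.35, and each of their counting intervals included 0. Of these 6 windows, 3 overlapped one another and held 9 and 15 reads each.

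The MEK genes also differed from each other. MAP2K1 (ENSG00000169032; chromosome 15 from 66386912 to 66491544) resembled BRAF, with 17 merged peaks between 16.9 and 96.5 kb from its 3′ end. All 8 lactate peaks and 13 of 14 ddH2O peaks were in introns. Its leading window, an intron peak from 66447101 to 66448461, was the longest peak of any member and was called in both lists, at fold enrichments of 5.31 with lactate and 5.46 with ddH2O. The window held 34 and 31 reads, densities of 20.7 and 13.5 reads per kb, and a log2 ratio of 0.61 with a counting interval of -0.13 to 1.37, or 0.93 with an interval of 0.19 to 1.69 under the library sums. It reaches the ribosomal protein pseudogene RPL35AP32, which lies within MAP2K1. Another intron peak, from 66454309 to 66454811 and called with lactate alone at a fold enrichment of 6.86, held 19 reads with lactate and 0 with ddH2O. The lower limit of its log2 ratio was 2.21, or 3.03 under the library sums. This limit covers counting error only, and not the selection through a peak called with lactate alone. The window fell under the minimum of 20 reads and is named here after its values were seen. Of the 15 MAP2K1 windows under 20 reads, 2 including this one had a counting interval wholly above 0 and 3 had one wholly below 0, or 2 and 0 under the library sums.

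MAP2K2 (ENSG00000126934; chromosome 19 from 4090321 to 4124122) followed HRAS instead. Its leading window, from 4090204 to 4090752, was annotated as exon and centred 147 bases before the 3′ end. It was called in both lists and held 89.9% of the reads summed over the MAP2K2 windows that do not overlap. The window had 127 reads with lactate and 201 with ddH2O, densities of 86.3 and 74.9 reads per kb, and a log2 ratio of 0.21 with a counting interval of -0.13 to 0.53. The 2 IP libraries thus did not differ beyond counting error at this window. The fold enrichment over input nevertheless was 13.6 with lactate and 6.96 with ddH2O. The other 7 windows held under 20 reads, and 3 of the 4 remaining exon peaks with ddH2O had a fold enrichment between 3.85 and 6.07.

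MAPK3 (ENSG00000102882; chromosome 16 from 30114105 to 30123220), the ERK gene, had a 3′ UTR peak from 30113985 to 30114522 in both lists and 1 weak intron peak with ddH2O. The 3′ UTR window held 101 reads with lactate and 112 with ddH2O, at densities of 66.5 and 43.3 reads per kb. It also reaches the neighbouring gene GDPD3, which ends at 30113537. The log2 ratio was 0.62 with a counting interval of 0.21 to 1.02. Here the fold enrichment was lower with lactate, at 9.55, than with ddH2O, at 16.4, which was the highest fold of any member peak. In MAPK3 the density was higher with lactate and the fold over input lower. In MAP2K2 the fold was higher with lactate at a similar density. The 2 folds of a gene were taken over separate input libraries, whose reads were not analysed here, so the part of the input in this order was not tested.

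**Figure D3:**
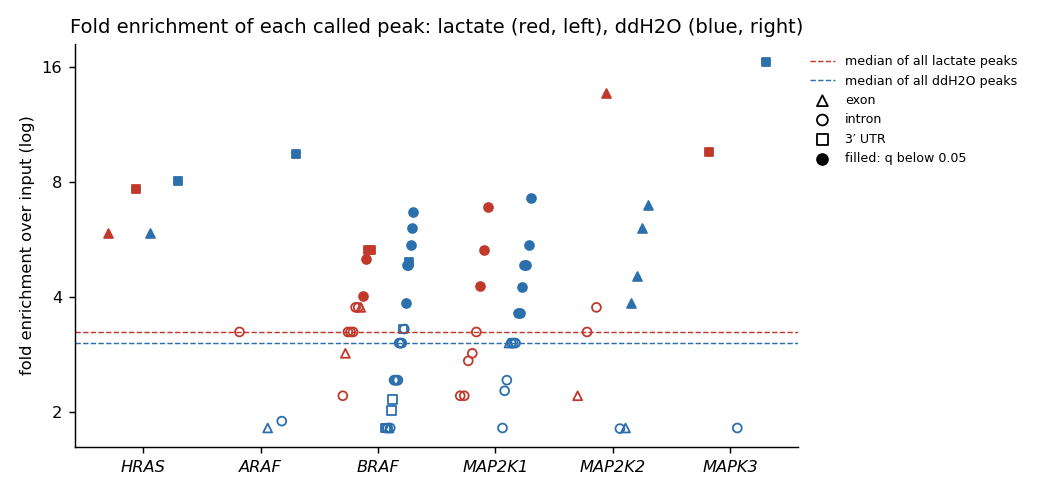
Fold enrichment over input of each called peak (y axis, log scale) by gene (x axis), with lactate peaks in red on the left and ddH2O peaks in blue on the right, symbols for the region, and filled symbols for a deposited q-value below 0.05. The highest folds, up to 16.4, were those of 3′-end peaks, while BRAF and MAP2K1 peaks lay between 1.82 and 7.28.

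The order of the leading windows was the same in both conditions except for ARAF. With lactate, density ran from HRAS (247.5 reads per kb) through MAP2K2, MAPK3, MAP2K1 and BRAF to ARAF (17.3), and the last 3 lay close together, with 34, 32 and 27 reads. With ddH2O, ARAF (46.9) stood beside MAPK3 (43.3), and BRAF (5.73) was the lowest. Many member peaks also shared their fold values with much of the lists. In the lactate list, 49.9% of all peaks had one of the 6 most common fold values, and so did 7 of 12 BRAF peaks, 5 of 8 MAP2K1 peaks and 3 of 4 MAP2K2 peaks. In the ddH2O list the numbers were 51.9% of all peaks, 14 of 23 BRAF peaks, 11 of 14 MAP2K1 peaks and 1 of 6 MAP2K2 peaks, and no HRAS peak of either list was among them. A deposited q-value of 1 was given to 6 of the 28 lactate peaks and 13 of the 50 ddH2O peaks of the members (21.4% and 26.0%), and to 19.02% and 18.6% of all peaks. The windows of 2 merged peaks, 1 in BRAF and 1 in MAP2K2, held 0 reads in both IP libraries, as did 1.77% of all merged peaks.

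Few member windows with at least 20 reads differed past 2-fold between the 2 IP libraries. Of 63 merged peaks, 14 held at least 20 reads over both IP libraries, and of these 1 (BRAF) was higher and 1 (ARAF) was lower with lactate by more than 2-fold in density. Among all 37925 merged peaks with at least 20 reads, 7.65% were higher and 18.6% were lower, and under the library sums, described next, 15.8% were higher and 9.95% were lower. With 1 member window in each direction under either scaling, the members' counts were not far from the background, whose direction turned with the scaling. A further 47 member windows held 1 to 19 reads, and these were counted after the data were seen. Of them 2 (4.26%) had a counting interval wholly above 0 and 6 (12.8%) wholly below 0, near the 5.33% and 16.1% of all windows with as many reads. Under the library sums 8 (17.02%) lay above and 0 below, against 12.9% and 4.05% of all. The median log2 ratio was 0.12 over the 14 member windows and -0.20 over all such windows. The 14 include 3 overlapping BRAF windows with the same 9 and 15 reads, and only 6 of the 14 overlap no other. The member median can therefore count a read more than once. Scaling the reads by the library sums in place of the authors' normalization moved the median of all windows by 0.27, to 0.07, and that of the members to 0.26. Relative to the median of all windows, the HRAS 3′ UTR window stood at 0.83 under the authors' normalization and at 0.28 under the library sums. ARAF stood at -1.24 and -1.31, and the leading BRAF window at 1.91 and 2.08. The ARAF and BRAF calls were thus present under both scalings, but each peak was called in 1 list alone, a selection that neither scaling removes.

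**Figure D4:**
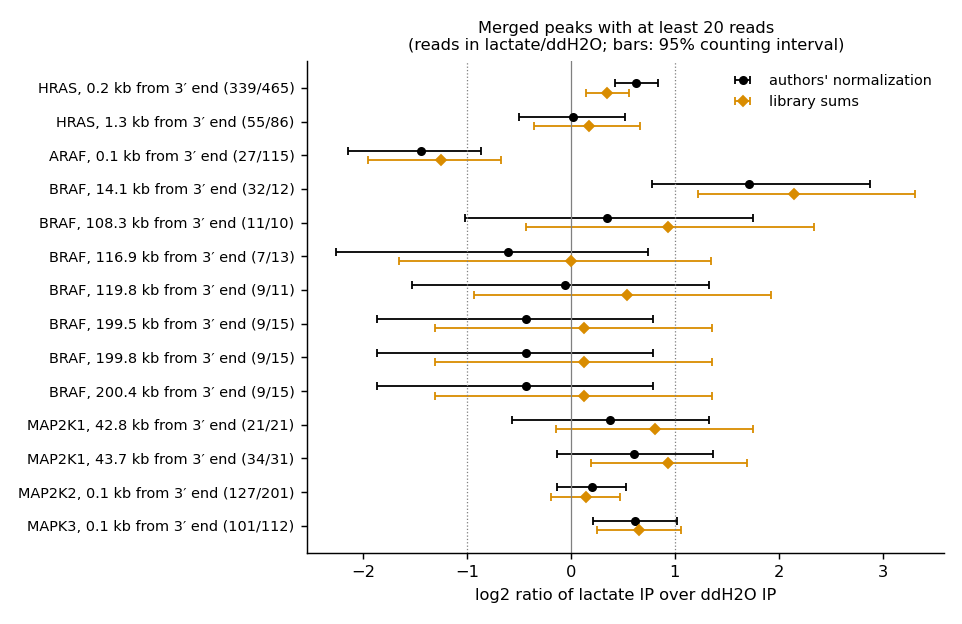
Log2 ratio of the lactate IP over the ddH2O IP (x axis) for the 14 member windows with at least 20 reads (y axis, with the distance from the 3′ end of the gene and the reads with lactate and ddH2O), under the authors' normalization (black) and the library sums (orange). Bars are 95% counting intervals, dotted lines mark 2-fold, and only the ARAF window and 1 BRAF window lie past them.

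The genes around the cascade were taken from a list of 75 RAS-ERK pathway genes, of which 67 had a merged peak. The other 8 had none, as did 39.0% of the 20056 RefSeq protein-coding genes. A window higher with lactate past 2-fold and with at least 20 reads was found in 17 of the 67 genes (25.4%), against 11.3% of all 12395 protein-coding genes with a merged peak. A lower window was found in 13 genes (19.4%), against 26.2% of all genes. Both kinds of window occurred in 4 genes and neither in 41. The list genes had a median of 5 merged peaks against 4 for all genes. Counted by window, 32 of 273 (11.7%) were higher and 32 (11.7%) lower, beside the 7.65% and 18.6% above. Under the library sums this even split was lost, with 60 windows (21.98%) higher and 17 (6.23%) lower, beside 15.8% and 9.95% of all windows. By gene the shares were then 38.8% higher and 14.9% lower, against 19.7% and 16.6% of all protein-coding genes. The leading window lay within 500 bases of the 3′ end in 26 of the 67 genes (38.8%), above the 28.1% of genes of any span. That share was 36.8% in genes with a span under 50 kb and 12.5% in those of 100 kb or more. The list holds long genes such as SOS1 too, and its genes were not split by span.

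By role, the counts were small and several moved with the scaling, and they are to be read beside the shares of all genes above. Receptor adaptors and RAS activators, with a median of 21 merged peaks, had a higher window in 4 of 11 genes and a lower one in 4, or in 7 and 3 under the library sums. The other RAS-like GTPases and the RAL arm had a higher window in 4 of 8 genes with a peak and a lower one in 1, under either scaling. Among genes for RAF activation, scaffolds and chaperones, 5 of 18 had a higher and 4 a lower window, or 7 and 3 under the library sums. Among GTPase activators and negative regulators of RAS, 3 of 12 had a higher and 3 a lower one, or 5 and 2. Of the 5 genes for lipid processing and transport of RAS, 0 had a higher and 1 (FNTB) a lower window, or 1 and 1. ERK targets had a higher window in 1 of 10 genes, or 2 under the library sums, and a lower one in 0. Of the 3 ERK phosphatase genes with a peak, DUSP5 alone had a window with at least 20 reads, and its log2 ratio was 0.68. No peak was called for RASAL1, SPRY2, CNKSR2, LAMTOR3, RIT1, DUSP6, DUSP7 and RPS6KA6, which are named for this reason after it was seen.

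The higher pathway windows with the most reads were in SPRY4, RALA, YWHAQ and CBL. SPRY4, a Sprouty inhibitor of receptor signaling to RAS, had a 3′ UTR window on chromosome 5 from 142310535 to 142310744 with 61 reads with lactate and 42 with ddH2O, a log2 ratio of 1.11. RALA, a GTPase downstream of RAS, had an intron window with 52 and 27 reads and a log2 ratio of 1.44, and another intron window with 5 and 26 reads and a log2 ratio of -1.92. YWHAQ encodes a 14-3-3 protein, a family that binds RAF, and had an intron window with 52 and 17 reads and a log2 ratio of 2.02. CBL, a ubiquitin ligase that acts on activated receptors, had an intron window with 41 and 22 reads and a log2 ratio of 1.33. All 4 also passed 2-fold under the library sums, but this scaling does not remove a selection through a peak called in 1 list alone. SPRY4 had 1 peak in each list and 2 merged peaks, so its window held a SPRY4 peak of 1 list alone. In which list the RALA, YWHAQ and CBL windows were called was not examined, and no counting interval was taken for the 4 windows. The leading windows of YWHAQ (45 and 51 reads, log2 ratio 0.40) and CBL (280 and 473 reads, log2 ratio 0.31) were others, and did not pass 2-fold.

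The lower pathway windows with the most reads were in YWHAE, SOS1, RASA1 and FNTB. YWHAE, another 14-3-3 gene, had an exon window on chromosome 17 from 1399873 to 1400258 with 64 reads with lactate and 312 with ddH2O, a log2 ratio of -1.43. The leading YWHAE window, in an intron, held 716 and 1662 reads at a log2 ratio of 0.12. SOS1, a nucleotide exchange factor that loads RAS with GTP, had an intron window with 24 and 73 reads and a log2 ratio of -1.02, which under the library sums was -0.76 and no longer past 2-fold. SOS1 had 5 windows in each direction among its 42 merged peaks, or 8 higher and 3 lower under the library sums, and its leading window, in the 3′ UTR, had 90 and 105 reads and a log2 ratio of 0.52. RASA1, a GTPase activator that switches RAS off, had an intron window with 16 and 76 reads and a log2 ratio of -1.68, which reaches the gene CCNH. Its leading window, in another intron peak, had 30 and 69 reads and a log2 ratio of -0.61. FNTB encodes the beta subunit of the farnesyltransferase that lipidates RAS, and had an exon window with 8 and 54 reads and a log2 ratio of -2.23. It was called with ddH2O alone and lay 227 bases before the 3′ end of the gene, as the ARAF window lay 137 bases before its own. Both windows entered through the ddH2O list alone, and this selection favours a ratio below 0. In which list the YWHAE, SOS1 and RASA1 windows were called was not examined. The FNTB window also reaches MAX and the readthrough gene CHURC1-FNTB.

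**Figure D5:**
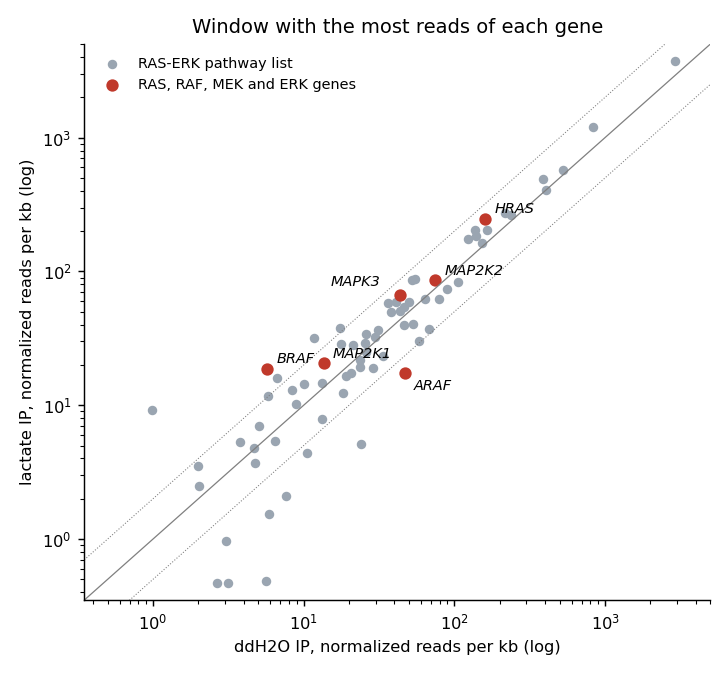
Normalized density of the leading window of each gene (reads per kb, log axes), with the ddH2O IP on the x axis and the lactate IP on the y axis, for 67 RAS-ERK pathway list genes (grey) and the 6 members with a peak (red). The solid line marks equal density and the dotted lines 2-fold, and ARAF and BRAF lie outside them on opposite sides. Each of these 2 windows was called only in the list where it is denser, a selection that favours such a ratio.

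For each member the protein-coding gene with the most similar pattern was found by Euclidean distance over 10 measures from the 2 IP libraries, namely the log2 reads of the leading window and the log2 number of peaks per region in each list. MAPK3 was closest to RAB26 (distance 0.085), whose leading window held 97 reads with lactate and 117 with ddH2O. MAP2K1 was closest to RTN3 (0.38), ARAF to DELE1 (0.59; 41 and 124 reads), HRAS to METRN (0.64; 467 and 636 reads) and MAP2K2 to MICAL1 (0.75). BRAF had the most isolated pattern, with PCSK6 as the closest gene at a distance of 1.56. Within a distance of 2 lay 0.056% of genes for BRAF and 6.60% for MAPK3. The RefSeq pseudogenes named after the members, namely ARAFP1, ARAFP2, ARAFP3, BRAFP1 and MAP2K1P1, had no peak in either list.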

How the data were processed

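Peaks of each IP library were called by the authors with the matching input as control. Their deposited lists, 1 per condition, give a fold enrichment (IP to input ratio) together with p-value, q-value and −log10 columns. The submitters' processing notes name fastp 0.20.1, HISAT2 2.1.0, MACS2 2.2.7.1, bedtools 2.29.2 and GRCh38. The authors then merged the lists with MAnorm and deposited a normalized signal (read density) per IP library, with M, A and P values that compare the conditions. The M, A and P values were not used.

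The reads in each 2000-base window were recovered from the 2 densities, as a density is the reads plus 1 per kb after a straight line in mean log2 density is taken off. They were whole within 0.05 for 99.998% of 116484 merged peaks. Windows summed to 9756054 reads for lactate and 9553835 for ddH2O. The mitochondrial rRNA MT-RNR2, in the 1 window above 5% of a library, held 78.7% and 62.04% of them. Without it the sums were 2074762 and 3626694, used as the alternative scaling with 1 read added. The median window held 5 and 7 reads.

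A merged peak took the gene of each called peak it overlapped by 1 base and the region with the most shared bases. It was called past a 2-fold density ratio with at least 20 reads over both windows. Counting intervals are 95% Clopper-Pearson intervals of the lactate share of reads, turned into ratios. They compare 2 libraries, not conditions, and do not cover the selection of a window through a peak called in 1 list alone. Gene spans are those of RefSeq on GRCh38.p14. Named were all 7 members with their leading windows and windows past 2-fold, the 4 pathway list genes per direction whose past-2-fold window held the most reads, the most similar gene per member, and pseudogenes. Alternatives were a fold enrichment of at least 4, a q-value below 0.05, an overlap of 50%, the library sums, a fold of 4, read minimums of 0, 10 and 50, exon and UTR windows, and windows that overlap no other. The members and lists were chosen with earlier results of these data known. Python 3.11.15, numpy 2.4.6, pandas 2.3.3, scipy 1.17.1, matplotlib 3.10.9 and bedtools 2.31.1 were used.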

Additional observations from a re-analysis of the deposited data

How the results depend on the processing

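Stricter peaks left fewer member peaks, with 11 of 28 for lactate and 18 of 50 for ddH2O where the fold enrichment was 4 or more, and 11 and 22 at a q-value below 0.05. Over all peaks these shares were 35.3% and 32.4% for fold and 42.7% and 48.6% for q-value. An overlap of 50% of both peaks left 8 of 14 shared lactate peaks (57.1%), against 68.0% of those of all protein-coding genes. The count of 1 window in each direction held under the library sums and among windows that overlap no other. A fold of 4 left 0 in each direction. With no read minimum 12 windows were higher and 18 lower, with 10 reads 7 and 9, and with 50 reads 0 and 1. Exon and UTR windows alone held 0 higher and 1 lower window. The shares of all windows under the fold of 4, these read minimums and these regions were not counted. The member counts under those settings therefore cannot show whether the members differ from other genes. The median log2 ratio of 0.12 was 0.26 under the library sums, -0.37 with no read minimum, -0.054 with 10 reads and 0.41 with 50 reads, so its sign depended on the sparse windows included. Under the library sums 26 pathway list genes, in place of 17, had a higher window, against 19.7% of all genes, and 10, in place of 13, had a lower one, against 16.6%. The cause of these changes was not tested. Of 14 single windows, 13 stayed within their counting interval under the library sums, all but the HRAS 3′ UTR window (0.63 to 0.35), and 4 changed sign, all in BRAF and none past 2-fold. The interval of the leading MAP2K1 window held 0 under the authors' scaling (-0.13 to 1.37) and not under the library sums (0.19 to 1.69). Of 47 member windows with 1 to 19 reads, counted after seeing the data, 2 had an interval above 0 and 6 below, and under the library sums 8 and 0. The number of members with a leading window at the 3′ end was 4 at 250, 500 and 1000 bases. No paired analysis was possible because each group has 1 library. Few reads limit most member windows, as 49 of 63 (77.8%) held under 20 reads, against 67.4% of all windows. The cause of these low counts was not tested. A scaling that takes the library sums as equal removes any difference that all windows share.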
